A study of Mus musculus with 18 samples.

Results

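The cytosolic ribosomal protein genes are the protein-coding genes whose symbols begin with Rpl or Rps followed by a digit, together with Rplp0, Rplp1, Rplp2 and Rpsa, leaving out pseudogenes and the Rps6k kinases. The rule found 86 of the 35150 genes in the table, and each gene's level was the sum of its transcripts in TPM (transcript abundance per unit of transcript length, which the authors further normalized between samples). They were 43 large subunit genes, 31 small subunit genes, 3 stalk genes, 8 paralogs of another member and Rps19bp1, which matches the symbol rule but encodes a protein that binds S19. RNA was taken from 9 mice whose right buccal and superior marginal facial nerve branches had been cut, and whose left side was the sham control, where an incision was made and closed with the nerve left intact. At 1, 3 and 7 days, 3 mice each gave a biopsy punch, holding both skin and muscle, from each rostral pad. The mice were adult, and the study drew on both sexes, while the strain and genotype of these mice and the sex of each are not given in the sources used here. Since the cut was always on the right, side of the face and lesion cannot be told apart, and the days hold different mice.

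Ribosomal proteins coat the ribosomal RNA of the small and large subunits, and nearly every one is needed in equal number in each ribosome, so that their messages are abundant in all cells and usually move together. The P proteins of the stalk recruit elongation factors to the ribosome. A few subunits have paralogs with restricted expression, of which Rpl3l is the best known: striated muscle makes it and places it in ribosomes in exchange for Rpl3, the large subunit protein near the peptidyl transferase centre. Whisker pad punches mix skin with the small muscles that move the whiskers, and in such bulk samples fewer cells of a type and less RNA per cell cannot be told apart.

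The punches differed in muscle content. The summed level of 10 muscle fibre genes ran from 18800 to 37988 TPM in 16 samples, but was 6537 on the sham side and 9585 on the denervated side of day 1 mouse 1. Haemoglobin transcripts took 16.6% of the summed TPM of the denervated sample of day 7 mouse 1 and 0.313% to 6.07% elsewhere. All 10 muscle genes passed the filter on low values, as did 8 of 8 keratinocyte genes, so the labelled tissue of skin and muscle was present. Of the 86 members, 85 passed that filter in every comparison. Rpl10l, a paralog of Rpl10 known from testis, was at 0 to 0.259 TPM and did not.

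Levels of the members were high and even. By mean TPM over 18 samples, 52 members stood at 1000 or more, 28 between 100 and 1000, and 6 under 100, with a median of 1237 TPM against 13.4 for all genes tested. Rpl13a, a large subunit protein, was highest and ranged from 2684 to 3916 TPM. Rps27, a zinc finger protein of the small subunit, ranged from 2787 to 4374 TPM, and Rpl41, the smallest protein of the large subunit, from 2514 to 3838 TPM. Rps24, a small subunit protein, ranged from 2053 to 3054 TPM, and the ranges of these genes overlap. At the low end stood Rpl10l, Rpl39l (0.664 to 3.29 TPM, a paralog best known from testis), Rps19bp1 (23.3 to 41.8 TPM), Rpl7l1 (27.3 to 42.3 TPM, a paralog that acts in large subunit assembly) and Rpl12 (27.3 to 60.5 TPM). The standard deviation of log2 TPM over the 18 samples had a median of 0.18 for the 85 members tested and 0.27 for all genes tested, and 68 of the members lay under 0.3. The members that varied most were Rpl3l (0.89), Rpl36 (0.59), Rpl39l (0.49), Rps3a1 (0.48) and Rplp0 (0.46). With the TPM of pseudogene copies added, Rps3a1 was at 0.15 and Rplp0 at 0.37.

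The muscle paralog Rpl3l fell after denervation, and it was the only member that passed the test between sides. Rpl3l (ENSMUSG00000002500) lies on chromosome 17 of GRCm38, chr17:24727820-24736143 on the plus strand, and Rpl3 (ENSMUSG00000060036) on chromosome 15, chr15:80077791-80091868 on the minus strand. The first 120 coding bases of each are shown because they show how far reads of the paralog and of its counterpart can be told apart. The sequences are those of GENCODE M21 transcripts, 5′ to 3′ from the start codon, with the 31 differing bases in capitals:
Rpl3: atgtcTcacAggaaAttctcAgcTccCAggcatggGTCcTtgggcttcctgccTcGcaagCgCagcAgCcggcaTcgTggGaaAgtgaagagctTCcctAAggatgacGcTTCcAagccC
Rpl3l: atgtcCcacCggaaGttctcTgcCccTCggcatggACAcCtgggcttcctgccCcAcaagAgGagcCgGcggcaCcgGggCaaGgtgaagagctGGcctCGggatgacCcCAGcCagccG
Over 1212 aligned coding bases the genes were 73.9% identical. The longest run of bases shared by their main transcripts was 22, and none of the 31-base words of Rpl3l occurred in another gene, whereas 87.6% of those of Rpl3 did.

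At day 1, Rpl3l stood at 42.7, 165 and 199 TPM in the sham samples of mice 1 to 3 and at 52.7, 100.1 and 104 TPM in their denervated samples. The sides overlapped, and the denervated side was lower in mice 2 and 3 but not in mouse 1, the mouse with little muscle in its punches. The fold change was -0.45 (log2 of TPM plus 0.5, SE 0.62, limma adjusted p = 0.999).

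At day 3, Rpl3l was at 114, 153 and 143 TPM on the sham side and at 58.9, 39.0 and 45.3 TPM on the denervated side of mice 1 to 3. No denervated sample reached the lowest sham sample. The means were 136 ± 20.5 TPM and 47.8 ± 10.2 TPM (SD, n = 3 each), and the fold change was -1.51 on the log2 scale (SE 0.18, limma adjusted p = 0.017). Blocking on mouse gave Rpl3l an adjusted p of 0.055, a single fit of all 18 samples gave 0.092, and leaving out mouse 2 or mouse 3 gave 0.25 for either.

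At day 7, Rpl3l was at 237, 219 and 197 TPM on the sham side and at 57.2, 57.6 and 71.4 TPM on the denervated side. Again the sides did not overlap, with every denervated sample far under the lowest sham sample. The means were 218 ± 19.8 TPM and 62.1 ± 8.1 TPM (SD, n = 3 each), and the fold change was -1.81 (SE 0.14, limma adjusted p = 0.0033). Without mouse 1 the adjusted p was 0.15 and without mouse 2 it was 0.12, where 2 mice remained. Over all days the fold change of Rpl3l was -1.26 (SE 0.27, limma adjusted p = 0.016), with 9 samples on each side. It was -1.45 (adjusted p = 1.27e-05) without day 1 mouse 1, and the adjusted p rose to 0.064 to 0.074 without day 3 mouse 2 or 3 or day 7 mouse 1 or 2.

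The difference of the injury effect on Rpl3l between days was not called, at -1.07 for day 3 minus day 1 (SE 0.60, limma adjusted p = 0.65) and -1.36 for day 7 minus day 1 (SE 0.60, limma adjusted p = 0.68). Both of the main Rpl3l transcripts were lower at day 7. The transcript of 1375 bases, which held 71.7% of the gene's mean TPM, stood at 190, 146 and 119 TPM in sham and at 48.7, 43.2 and 57.1 TPM in denervated samples of Rpl3l. That of 1033 bases stood at 45.5, 71.7 and 77.9 TPM against 8.0, 13.9 and 14.3 TPM. At day 3 the shorter transcript overlapped between sides, at 12.3, 13.6 and 23.3 TPM in sham and 24.3, 13.2 and 9.52 TPM in denervated samples.

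**Figure D1:**
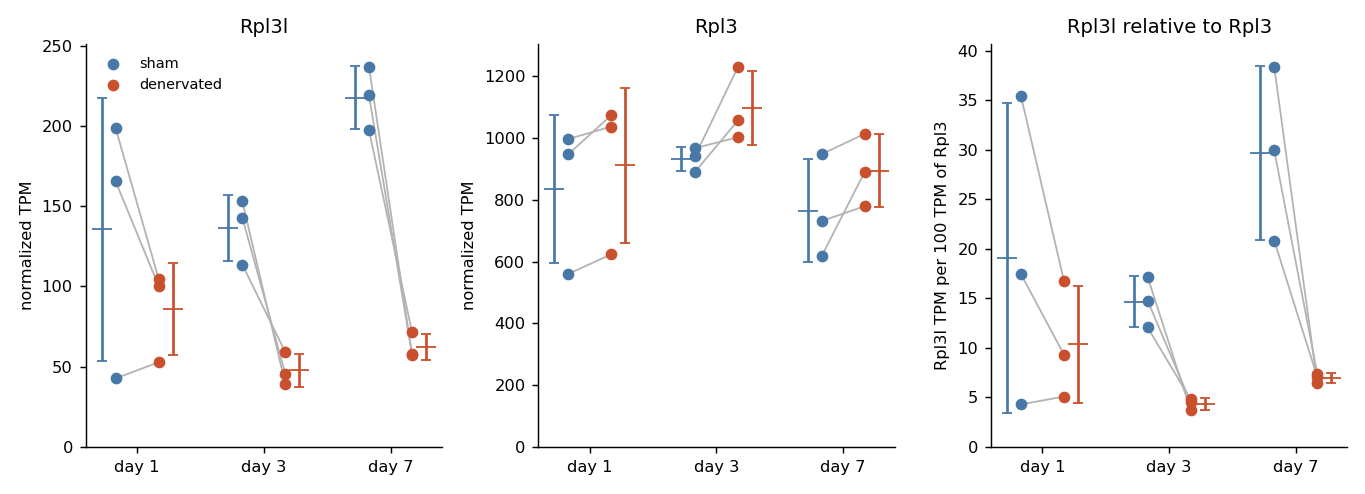
Levels of Rpl3l and Rpl3 in normalized TPM and Rpl3l per 100 TPM of Rpl3, by day and side. Points are samples, grey lines join the sides of a mouse, and bars give mean ± SD (n = 3); Rpl3l fell in all 6 mice of days 3 and 7 and Rpl3 was higher on the denervated side of all 9 mice.

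The counterpart Rpl3 did not fall with it. Rpl3 was at 996, 947 and 560 TPM in the day 1 sham samples and 1037, 1074 and 624 TPM in the denervated ones. It was at 941, 890 and 967 TPM against 1230, 1057 and 1003 TPM at day 3, where the sides did not overlap, and at 617, 731 and 947 TPM against 890, 779 and 1013 TPM at day 7, where they did. Rpl3 was thus higher on the denervated side in 9 of 9 mice, by 0.052 to 0.53 on the log2 scale, but the fold change over all days was 0.20 (SE 0.13) and was not called (limma adjusted p = 0.55). Per 100 TPM of Rpl3, the sham sides held 4.29, 17.5 and 35.5 TPM of Rpl3l at day 1, 12.1, 17.2 and 14.8 at day 3, and 38.4, 29.9 and 20.8 at day 7. Their denervated counterparts held 5.08, 9.32 and 16.8 at day 1, 4.79, 3.69 and 4.52 at day 3, and 6.43, 7.39 and 7.05 at day 7. In day 1 mouse 3, with the TPM of pseudogene copies of Rpl3 added to Rpl3, the ratios were 21.4 and 10.8 in place of 35.5 and 16.8. Expressed as log2, the ratio was lower on the denervated side in 8 of 9 mice, by a mean of -1.46 ± 0.83 (SD, n = 9 mice, exact two-sided sign-flip test, p = 0.0078, where the smallest p possible is 0.0039). Within a day, 3 against 3 cannot go below p = 0.10, which days 3 and 7 reached with differences of -1.74 and -2.04, while day 1 gave -0.58 (exact permutation tests, p = 0.70 at day 1).

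Rpl3l followed the muscle content of the punch on the sham side. Per 10000 TPM of the 10 muscle genes, the sham samples held 65.3, 72.5 and 62.1 TPM of Rpl3l at day 1, 50.8, 62.6 and 59.3 at day 3, and 62.3, 58.4 and 58.4 at day 7, so that the punch with little muscle did not stand apart. The denervated samples held 55.0, 49.6 and 55.6 at day 1, 27.0, 14.5 and 20.1 at day 3, and 18.6, 18.5 and 20.6 at day 7. On this scale the sides did not overlap at any day, and the denervated side was lower in 9 of 9 mice. Between sides, 1.45% of all genes were called at day 3 and 1.53% at day 7. Larger shares of the 10 muscle genes were called, as 1 rose and none fell at day 3, and 1 rose and 1 fell at day 7. Their summed level was lower on the denervated side in day 7 mice 1 (37988 and 30778 TPM) and 2 (37481 and 31208 TPM). It was not lower in day 7 mouse 3 (33788 and 34588 TPM), and at day 3 it was lower in mice 1 and 3 only. Actn3, a fast-fibre actinin, rose by 2.61 (log2, limma adjusted p = 0.048) and then by 1.64 (adjusted p = 0.010), and Ckm, the muscle creatine kinase, fell by 1.12 at day 7 (log2, limma adjusted p = 0.010). With every sample rescaled to the muscle sum, a scaling chosen after seeing the data, the fold change of Rpl3l was -1.52 at day 3 (limma adjusted p = 0.018) and -1.63 at day 7 (limma adjusted p = 0.0014). At day 1 Rpl3l was not called with that scaling, nor in any other of the 16 alternatives. That scaling moved the median of all genes by 0.11 at day 1 and 0.16 at day 7.

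**Figure D2:**
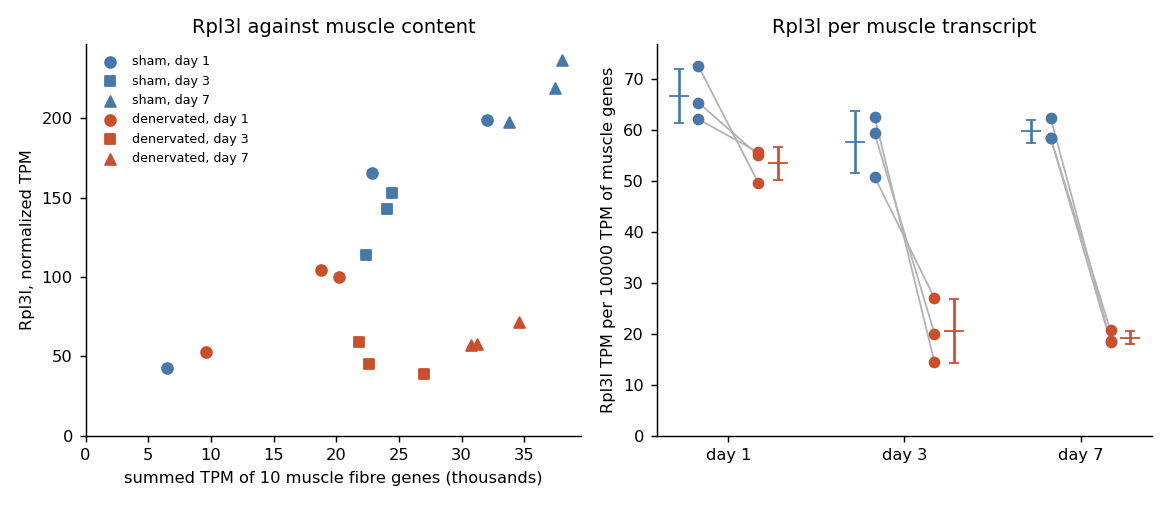
Rpl3l in normalized TPM against the summed TPM of 10 muscle fibre genes in 18 samples, and Rpl3l per 10000 TPM of those genes by day and side. Bars give mean ± SD (n = 3), and the sham samples lie between 50.8 and 72.5 while the denervated ones of days 3 and 7 lie between 14.5 and 27.0.

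The other members showed no called change between sides. Over all days, 1 of 85 members tested was called, Rpl3l, and it was lower, whereas 3.1% of 14757 genes were called and 1.18% were called lower. At day 1, no member and no gene was called (0% of 14776 genes), and 1 member had an unadjusted p under 0.05, Rpl7l1, as did 4.29% of all genes. At day 3, Rpl3l was again the member called, where 1.45% of 14943 genes were called and 0.442% were called lower. At day 7 it was so too, where 1.53% of 15081 genes were called and 0.511% called lower. At an unadjusted p under 0.05 there were 4 of 85 members over all days, where 14.7% of all genes lay under it, 5 at day 3 (14.7% of all genes) and 1 at day 7 (12.3% of all genes).

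The small shifts of the others shared a sign at days 1 and 3. At day 1, 69 of 85 members had a positive fold change, with a median of 0.067 on the log2 scale, where the median of all genes was 0.0070. At day 3, 72 were positive, with a median of 0.15, against -0.015 for all genes. The day 7 comparison had 31 positive members and a median of -0.031 against 0.039, which became 0.15 against 0.20 when rescaled to the muscle genes. Large and small subunit genes did so alike, with medians of 0.067 and 0.061 at day 1, 0.16 and 0.12 at day 3, and -0.031 and -0.037 at day 7. By mouse, the median member was higher on the denervated side by 0.17 and 0.10 in mice 2 and 3 of day 1 and by 0.35 and 0.24 in mice 1 and 2 of day 3. It was lower in the remaining mice other than day 7 mouse 1 (0.066), by up to 0.16 in day 3 mouse 3. The sign thus differed between mice of the same day.

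**Figure D3:**
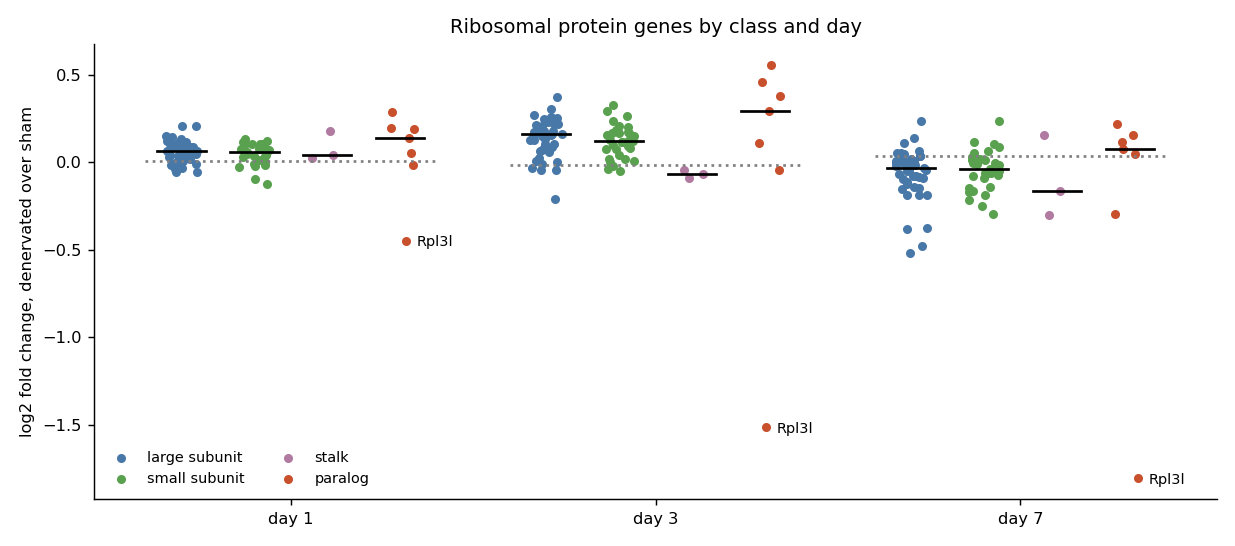
Log2 fold change of denervated over sham for 84 members by class and day. Points are genes, black lines class medians and dotted lines the median of all genes tested; Rpl3l stands apart at days 3 and 7 while the other members lie between -0.52 and 0.56.

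Among the other paralogs, none was called. Rps27l, a paralog of Rps27 that is induced by p53, was at 263, 266 and 334 TPM in the day 3 sham samples and at 420, 406 and 360 TPM in the denervated ones. The sides did not overlap at that day, but the fold change of 0.46 for Rps27l was not called (SE 0.13, limma adjusted p = 0.18), nor was that of 0.25 over all days (adjusted p = 0.11). Rpl22l1, a paralog of Rpl22 known from T cell development and splicing, was at 427, 445 and 453 TPM in day 3 sham and 642, 629 and 472 TPM in denervated samples. These did not overlap either, and its fold change was 0.38 (SE 0.14, limma adjusted p = 0.29), while that of Rpl22 itself was 0.15 (SE 0.12).

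Rpl7l1 was at 35.99, 31.1 and 33.8 TPM in day 1 sham and 39.9, 42.3 and 41.0 TPM in day 1 denervated samples, a fold change of 0.29 (SE 0.10, limma adjusted p = 0.999), with Rpl7 at 0.067 (SE 0.12). Rpl36al had a fold change of 0.14 over all days (SE 0.08) and Rpl36a one of 0.050 (SE 0.09). Rps27rt, an intronless copy of Rps27, had one of -0.047 (SE 0.16) and Rps27 one of 0.044 (SE 0.09). Rpl39l had the highest estimate over all days, 0.25, and at day 3, 0.56, with SE of 0.19 and 0.28 at levels near 2 TPM, and Rpl39 had 0.093 (SE 0.09). Rpl10 had 0.17 over all days (SE 0.07, limma adjusted p = 0.28). That is for the gene as annotated, without the copies, mainly Rpl10-ps3, that held 77.1% to 85.4% of the joint TPM.

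The stalk and the laminin receptor protein did not change between sides by the test. Rplp0 had a fold change of 0.098 over all days (SE 0.11), Rplp1 one of -0.067 (SE 0.14) and Rplp2 one of -0.12 (SE 0.13). Rpsa, the small subunit protein also known as the laminin receptor, was at 1443 ± 133 TPM in sham and 1554 ± 176 TPM in denervated samples (SD, n = 9 each), a fold change of 0.10 (SE 0.06, limma adjusted p = 0.53). After Rpl3l the lowest estimate belonged to Rpl36, a large subunit protein. It was at 874, 880 and 392 TPM in the day 7 sham samples and at 425, 825 and 294 TPM in the denervated ones, which overlap, and its fold change of -0.52 at day 7 was not called (SE 0.46, limma adjusted p = 0.71). The highest estimates at day 7 were those of Rpl3 (0.24, SE 0.19) and Rps3 (0.24, SE 0.28).

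The summed share of the members was lower at later days on both sides. The 86 members took 13.1%, 11.8% and 11.05% of the summed TPM in the day 1 sham samples of mice 1 to 3 and 11.8%, 12.8% and 12.9% in the denervated ones. They took 10.1%, 10.3% and 11.6% against 10.99%, 11.1% and 11.2% at day 3, and 8.83%, 9.91% and 9.44% against 8.0%, 10.2% and 9.42% at day 7. The denervated side held more in 5 of 9 mice, with differences of -1.25 to 1.82 percentage points, so the sides overlapped at each day. Every day 7 sample lay under every day 1 sample. Over the same samples the muscle genes summed to 6537 to 31992 TPM at day 1 and 30778 to 37988 TPM at day 7, mitochondrially encoded transcripts took 13.5% to 17.5% at day 1 and 16.4% to 23.6% at day 7, and the part of either in the share was not tested. The lowest share belonged to the sample rich in haemoglobin.

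On the denervated side, 9 members were lower at day 7 than at day 1 and none was higher. This is 10.6% of the 85 tested, where 21.3% of 14701 genes were called and 7.65% were called lower. The members' median was -0.28 on the log2 scale and 79 had a negative sign, against a median of 0.023 for all genes. Of the large subunit, Rpl8, Rpl29, Rpl12, Rpl5, Rpl11 and Rpl27 fell, of the small subunit Rps9, of the stalk Rplp0, together with Rps19bp1. Rpl5 and Rpl11 are the proteins that, with the 5S ribosomal RNA, restrain Mdm2 and so raise p53.

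Rps19bp1 was at 34.8, 41.8 and 39.1 TPM at day 1 and at 23.3, 24.8 and 26.2 TPM at day 7 in denervated samples, which did not overlap, a fold change of -0.63 (SE 0.10, limma adjusted p = 0.0039). Rpl8, a large subunit protein near the catalytic centre, went from 1262, 1494 and 1541 TPM to 990.3, 1116 and 969 TPM, without overlap, at -0.48 (SE 0.12, limma adjusted p = 0.027). Rps9, a protein that binds early in small subunit assembly, went from 1641, 1975 and 1889 TPM to 1371, 1465 and 1334 TPM, at -0.40 (SE 0.12, limma adjusted p = 0.045), and Rpl29 from 1043 ± 77.9 to 728 ± 104 TPM (SD, n = 3 each), at -0.52 (SE 0.15, adjusted p = 0.038). The count rests on few samples and on the scaling. It was 25 without day 1 mouse 1, 4 without day 1 mouse 2, day 1 mouse 3 or day 7 mouse 1, and 5 without day 7 mouse 3, and with each sample brought to an equal sum it was 42. The 4 were Rpl12, Rps19bp1, Rpl11 and Rplp0 each time, joined by Rpl7l1 without day 7 mouse 3. Rpl8, Rps9 and Rpl29 were not called in those fits. Rps19bp1 and Rplp0 stayed called in all 16 alternatives.

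The falls of Rpl12 (-0.80, SE 0.16), Rpl5 (-0.43, SE 0.13), Rpl11 (-0.69, SE 0.13) and Rpl27 (-0.69, SE 0.19) on the denervated side were called in the genes as annotated, but not once the TPM of their near-identical pseudogene copies was added, when they were -0.30, -0.086, -0.28 and -0.28 (limma adjusted p = 0.27, 0.72, 0.11 and 0.16). Rpl11 turned to 0.051 when its highest transcript alone was used. Among the genes as annotated, Rpl28, at -0.92 (SE 0.30), was the lowest estimate and was not called (limma adjusted p = 0.063). The highest was Rpl39l, at 0.77 (SE 0.27, adjusted p = 0.077). Copies held 54.2% to 70.4% of the joint TPM of Rpl28. With them added, Rpl28 was at 2192, 2739 and 2853 TPM at day 1 and at 1534, 2082 and 1532 TPM at day 7 in denervated samples.

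On the sham side the members moved the same way without a call. From day 1 to day 7, 81 of 85 had a negative sign, with a median of -0.17 on the log2 scale against -0.0082 for all genes, Rplp0 lowest (-0.89) and Rpl3l highest (0.95, SE 0.49, adjusted p = 0.41). Here 4 of 85 members had an unadjusted p under 0.05, as did 14.4% of all genes, and limma called no member where 0.00682% of 14671 genes, a single gene, were called. With each sample brought to an equal sum the median of all genes moved by -0.17 in this comparison and in the denervated one, and by -0.14 from day 1 to day 3 on the denervated side. Relative to all genes, the members' medians were then still lower, at -0.35 against -0.18 in sham and -0.46 against -0.15 in denervated samples. The difference of the injury effect between day 7 and day 1 was called for no member and for 0.163% of 14757 genes, with 2 members at an unadjusted p under 0.05, Rpl3l and Rpl12, and 7.14% of all genes. Between day 3 and day 1 it was called for no member and 0.122% of genes, with 1 member under 0.05, Rpl5, and 9.22% of all genes, and between day 7 and day 3 for no member and no gene (0%), with 2 members under 0.05, Rpl5 and Rps19bp1, and 6.86% of all genes. The lowest and highest estimates of these differences were Rpl3l (-1.07) and Rpl39l (0.58, SE 0.47) for day 3 minus day 1, Rpl27 (-0.60, SE 0.29) and Rps3 (0.27, SE 0.29) for day 7 minus day 3, and Rpl3l (-1.36) and Rpl39l (0.23, SE 0.47) for day 7 minus day 1. Those of Rpl5, Rpl12 and Rpl27 are for the genes as annotated, without the copies that hold most of their joint TPM.

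Neighbouring days gave no calls among the members. From day 1 to day 3, limma called 0.0818% of 14671 genes in sham and 11.6% of 14701 genes in denervated samples, and from day 3 to day 7, 0.0136% and 0.211%. No member was among them, and 4 and 7 of 85 members had an unadjusted p under 0.05 in the first pair of comparisons, against 10.9% and 29.1% of all genes. In the second pair there were 4 and 16, against 10.9% and 14.02% of all genes. In sham samples the lowest estimates were Rpl5 (-0.56, SE 0.11) from day 1 to day 3 and Rplp0 (-0.87, SE 0.19) from day 3 to day 7, and the highest was Rpl3l in each, at 0.27 (SE 0.49) and 0.68 (SE 0.49). With the TPM of its pseudogene copies added, sham Rpl5 was at 1439, 1480 and 1371 TPM at day 1. At day 3 it was then at 1387, 1230 and 1350 TPM, so the days overlapped. In denervated samples Rpl3l was lowest from day 1 to day 3, at -0.79 (SE 0.27, limma adjusted p = 0.088), where Rpl39l was highest at 0.71 (SE 0.27). From day 3 to day 7 Rpl36 was lowest at -0.84 (SE 0.42) and Rpl3l highest at 0.39 (SE 0.27). Rpl3l from day 1 to day 3 in denervated samples was called without day 1 mouse 1 (-1.11, adjusted p = 0.014) and with equal sums (-0.94, adjusted p = 0.048).

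**Figure D4:**
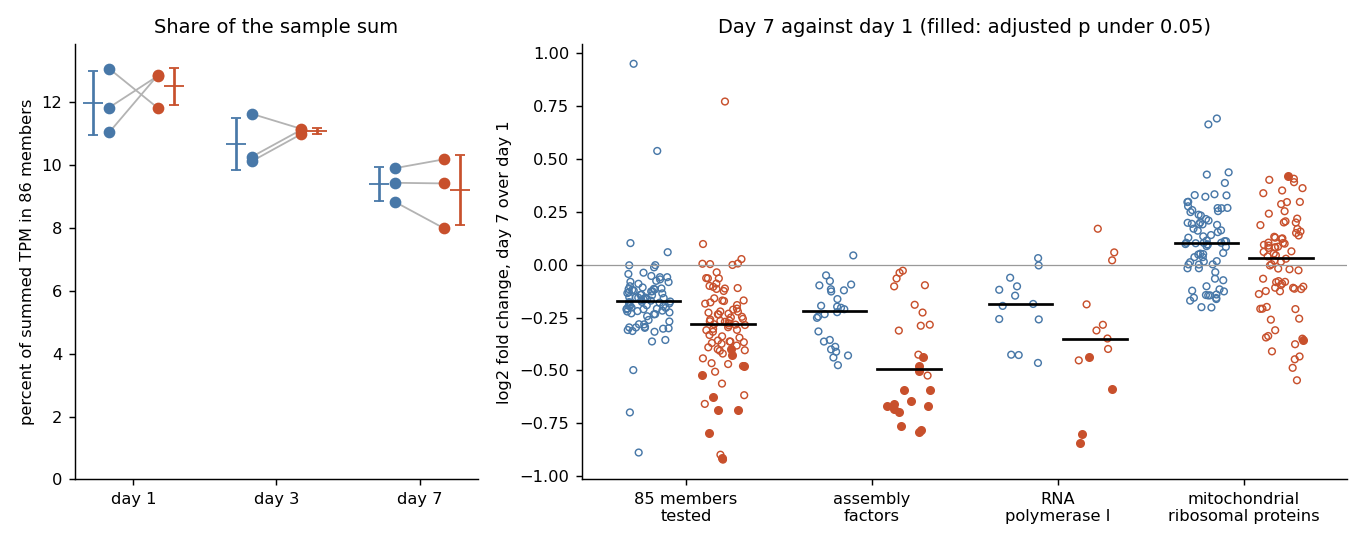
Percent of summed TPM in the 86 members by day and side (points are samples, bars mean ± SD, n = 3), and log2 fold change of day 7 over day 1 by gene for the members, assembly factors, RNA polymerase I genes and mitochondrial ribosomal proteins, with sham in blue and denervated in red, filled points past the test and black lines medians. The denervated medians are -0.28, -0.49, -0.35 and 0.034.

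Many ribosomal protein messages begin with a run of pyrimidines after a C, the 5′ terminal oligopyrimidine tract through which their translation is tuned together. The 30 bases around the gene start, 10 before and 20 from it, are shown for the 5 members of highest mean TPM with an entry in the RefSeq promoter table (GRCm38.p6) and for Rpl3l, to set the abundant genes beside the muscle paralog. Runs of a C followed by at least 5 letters that are each C or T, on the sense strand, are in capitals:
Rpl13a: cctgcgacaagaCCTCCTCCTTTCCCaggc
Rps27: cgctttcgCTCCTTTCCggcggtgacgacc
Rpl41: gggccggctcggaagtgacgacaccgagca
Rps24: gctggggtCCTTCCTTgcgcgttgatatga
Rps15: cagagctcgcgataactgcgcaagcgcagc
Rpl3l: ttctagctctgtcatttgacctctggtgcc
They lie at chr7:45128726-45128755 on the minus strand for Rpl13a, chr3:90213629-90213658 on the minus strand for Rps27, chr10:128549149-128549178 on the minus strand for Rpl41, chr14:24490668-24490697 on the plus strand for Rps24, chr10:80292421-80292450 on the plus strand for Rps15 and chr17:24727816-24727845 on the plus strand for Rpl3l. Of 66 members with an entry, 37 (56.1%) held such a run in the window, against 24.9% of 27025 genes. A C followed by at least 4 pyrimidines right at the annotated start was found in 21.2% of the members and 3.01% of all genes. The run is a description of letters, and its absence in the Rpl3l, Rpl41 and Rps15 windows says only that those letters are not there.

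Reads of many members cannot be told apart from those of processed pseudogenes. Over the transcripts, 65 members shared more than 50% of their 31-base words with another gene and 6 shared under 10%, with a median of 65.0%. Outside the members, 302 genes had at least 50% of their 31-base words in a member, and they held 20.3% of the summed TPM of members and copies. For Rpl12 the copies held 97.2% to 98.5% of the joint TPM, for Rpl5 92.6% to 96.2%, for Rpl27 87.1% to 92.9% and for Rps12 85.1% to 91.6%. The low annotated levels of Rpl12, Rpl5 and Rpl27 are therefore uncertain, while that of Rpl3l shares no such words.

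For several members the split between gene and copy differed between mice and little between the sides of a mouse. For other members the sides differed too, by up to 20.7 percentage points in a mouse for Rps29, 16.8 for Rpl21 and 15.1 for Rpl38. Rps3a1, a small subunit protein, shared 43.6% to 47.4% of its joint TPM with copies, mainly Rps3a2 and Rps3a3, in both samples of day 1 mouse 1, day 3 mouse 3 and the 3 mice of day 7, and 0.110% to 0.370% in the other 4 mice. No mouse differed by more than 1.77 percentage points between its sides. Rps3a1 itself ranged from 653 to 1785 TPM, and from 1206 to 1809 TPM with its copies.

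Rps2, a small subunit protein, shared 28.6% and 27.6% with its copy Rps2-ps10 and others in day 1 mouse 2, 50.8% and 49.3% in day 3 mouse 2, 51.2% and 52.2% in day 7 mouse 3 (sham and denervated) and at most 1.99% in the rest. For Rpl30 the share was 46.2% and 46.7% in day 1 mouse 3, and at most 1.05% elsewhere. That mouse also had Rpl3 at 560 and 624 TPM with 39.7% and 35.7% of the joint TPM in copies, mainly Rpl3-ps1, where all other samples had at most 0.25%. For Rps7 the share with copies was 55.1% to 63.7% in day 1 mouse 3, day 3 mice 1 and 2 and day 7 mouse 3, and 23.7% to 35.3% in the other mice.

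**Figure D5:**
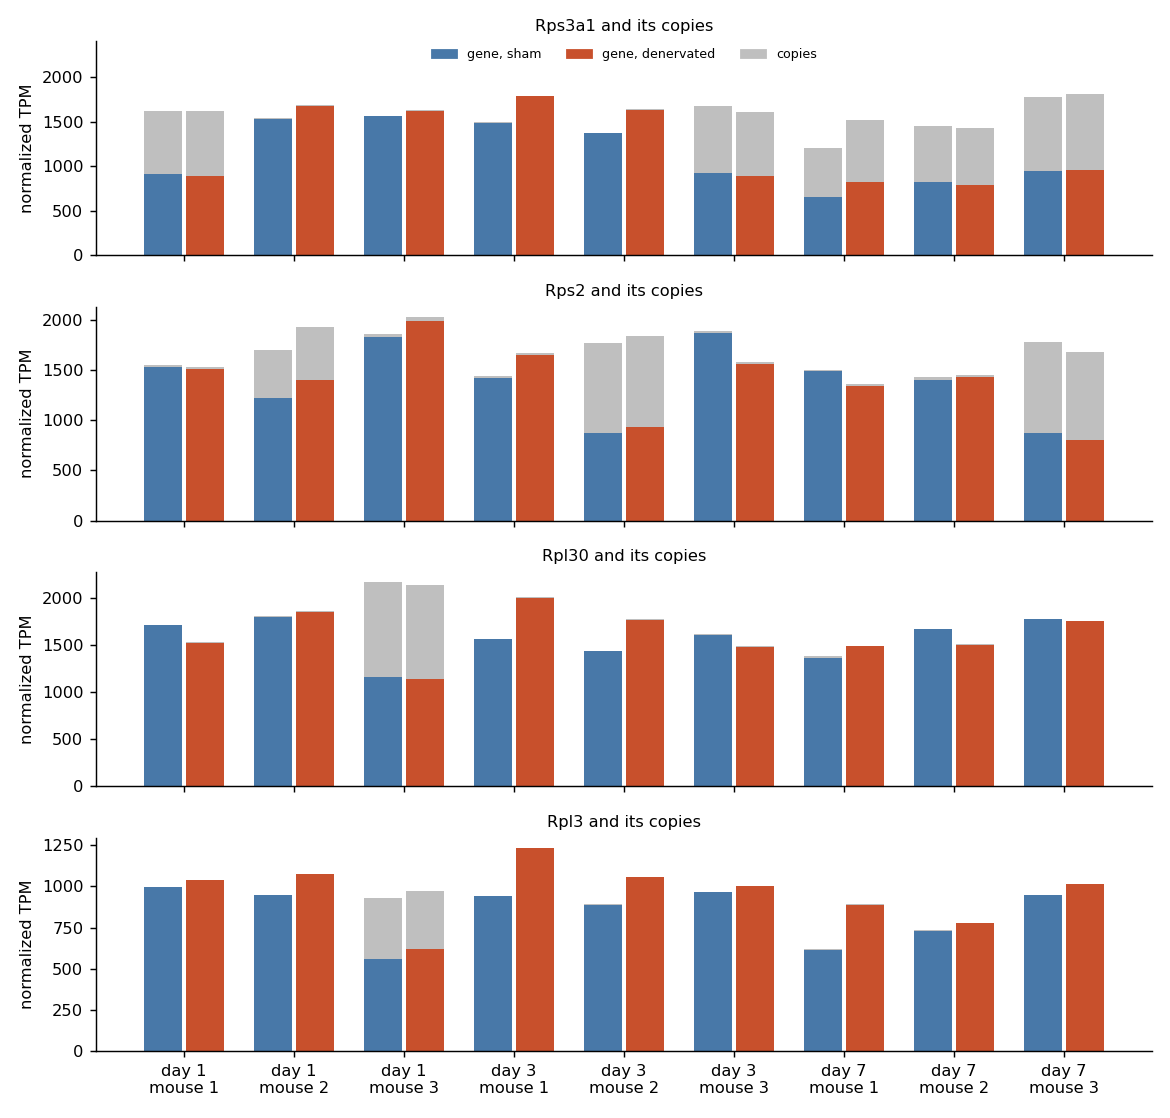
Normalized TPM of Rps3a1, Rps2, Rpl30 and Rpl3 (blue in sham, red in denervated samples) with the TPM of their copies stacked in grey, for the 9 mice. For these genes both sides of a mouse show a similar split, while mice differ.

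Rplp0 was low in some of the same mice, at 768 to 951 TPM in the 6 samples of day 7 and 1124 and 1066 TPM in day 3 mouse 3, against 1426 to 1822 TPM in the other samples. Its copies held 10.9% to 14.6% of the joint TPM in those low samples and at most 0.066% in the other samples. With the copies added, Rplp0 was at 893 to 1067 TPM at day 7 and at 1246 to 1822 TPM in the other samples. The fall of Rplp0 from day 1 to day 7 was -0.91 on the denervated side (SE 0.19, limma adjusted p = 0.012) and -0.89 on the sham side (SE 0.19, limma adjusted p = 0.17), and the part of the mouse in it was not tested. The mice with low Rplp0 are among those in which copies of Rps3a1 took up reads, the exception being day 1 mouse 1.

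Genes that build or serve the ribosome were taken from lists. Fau and Rack1, which encode ribosome components outside the symbol rule, were not called over all days, with fold changes of -0.084 for Fau (SE 0.11) and 0.054 for Rack1 (SE 0.07). Between days 1 and 7 on the denervated side Fau was at -0.53 and Rack1 at -0.34 (limma adjusted p = 0.055 and 0.099).

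Of 26 ribosome assembly factors, 4 rose and none fell over all days, and 25 had a positive sign, with a median of 0.17 on the log2 scale. Of all 14757 genes tested, 283 rose, 51.8% had a positive sign and the median was 0.0072. They were Bop1, which acts in large subunit processing (0.45, SE 0.08, limma adjusted p = 0.0030), Tsr1 (0.39, SE 0.07, adjusted p = 0.0026), Ltv1 (0.36, SE 0.08, adjusted p = 0.017) and Bysl (0.36, SE 0.07, adjusted p = 0.012), the last 3 acting on the small subunit. None was called when samples were rescaled to the muscle genes, and 2 to 6 were called when a mouse was left out, 2 without day 3 mouse 3. Of 5 neutrophil genes, 1 rose over the same samples. Their summed level was higher on the denervated side of every mouse, at 96.9 to 2658 TPM against 25.5 to 959 TPM in sham samples. The part of neutrophils in these changes was not tested.

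On the denervated side, 14 of the 26 assembly factors fell between days 1 and 7 and none rose, with a median of -0.49, where 7.65% of all genes fell and the median of all genes was 0.023. Fbl, the methyltransferase fibrillarin, fell by 0.68 (log2, SE 0.11, limma adjusted p = 0.0039), Gar1, of the pseudouridine-forming complex, by 0.78 (SE 0.14, adjusted p = 0.0072) and Nle1, of large subunit maturation, by 0.79 (SE 0.19, adjusted p = 0.023). On the sham side, the median was -0.22, 25 of 26 were negative and none was called. The count was 6 to 8 when 1 mouse was left out, among day 1 mouse 2, day 1 mouse 3, day 7 mouse 1 and day 7 mouse 3, and 8 with the highest transcript of each gene.

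Of 13 genes of the RNA polymerase I list, 4 fell from day 1 to day 7 on the denervated side, with a median of -0.35, where 7.65% of all genes fell: Myc (-0.84, SE 0.18), a driver of ribosome production, Polr1e (-0.80, SE 0.16), Taf1c (-0.59, SE 0.16) and Polr1c (-0.44, SE 0.09), with limma adjusted p of 0.013, 0.012, 0.032 and 0.0098. Of 30 initiation factors, Eif4a1, the cap-complex helicase, rose over all days by 0.28 (SE 0.07, limma adjusted p = 0.043), where 3.1% of all genes were called. From day 1 to day 7 in denervated samples, Eif4ebp1, the repressor that binds the cap protein, fell by 1.08 (SE 0.27, adjusted p = 0.025) and Eif3g by 0.44 (SE 0.09, adjusted p = 0.010), while Eif2s3x rose by 0.61 (SE 0.15, adjusted p = 0.023). In that comparison 21.3% of all genes were called.

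Of 8 elongation factors, Eef1a2, the form made in muscle and neurons, rose from day 1 to day 7 on the denervated side by 1.33 (SE 0.25, limma adjusted p = 0.0082), from 74.9 ± 24.0 to 182 ± 6.0 TPM (SD, n = 3 each), and Eef1a1 had 0.079 (SE 0.18) and Eef2 -0.14 (SE 0.11). Over the same samples 6 of 10 muscle fibre genes and 5 of 6 macrophage genes rose, where 2000 of 14701 genes rose. The part of muscle fibres and macrophages in these changes was not tested. Between sides, Eef1a2 had -0.37 (SE 0.31), Eef1a1 0.14 (SE 0.11) and Eef2 0.16 (SE 0.06), none of them called.

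The proteins of the mitochondrial ribosome are encoded by a separate set of nuclear genes. Of 78 such genes, 2 rose (Mrpl17 and Mrpl40) and 1 fell (Mrpl34) over all days, with a median of 0.027 on the log2 scale. Of all genes, 3.1% were called in that comparison. Between sides their medians were -0.012 at day 1, 0.19 at day 3 and -0.13 at day 7. Positive were 35, 62 and 23 of 78, beside cytosolic medians of 0.067, 0.15 and -0.031. On the denervated side, between days 1 and 7, 1 of the 78 rose and 1 fell, where 21.3% of all genes were called. Their median was 0.034 beside -0.28 for the cytosolic members, and this difference was not tested.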

How the data were processed

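Total RNA of 18 samples was made into TruSeq v2 libraries, a kit that does not mark strand. The authors called bases with bcl2fastq (2.17.1.14), removed duplicate reads, trimmed, and quantified ENSEMBL GRCm38 transcripts with kallisto (0.43.1). The deposited values, used here as a signal, are TPM normalized between samples by the authors with sleuth; they sum to 833186 to 1143839 per sample, and depth is unknown. Removing duplicates may lower the most abundant short transcripts, which was not tested. GENCODE M21 placed 98.5% of 113194 transcripts in genes, and TPM was summed per gene. Columns of day 7 were tied to mice by side and sequencing number, since their names differ from the sample titles.

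Members and lists were chosen with earlier results of these data known. Genes at 1 TPM or more in at least 47% of a fit's samples were tested with limma (3.58.1, R 4.3.3) on log2(TPM + 0.5) with a trended prior in 13 comparisons, with Benjamini-Hochberg adjustment over all genes and a threshold of 0.05. Folds are on that scale, which understates low genes. Labels name the mouse, and the sides of a mouse correlated in their deviations, at r = 0.16 to 0.57 over genes. Over the members r was higher, at 0.59 to 0.87, except in day 7 mouse 1 (-0.19). The main test between sides leaves this pairing out. A mouse block was therefore an alternative, as were other scalings, filters, pseudocounts and each mouse left out. The fit was tested on simulated data. Named were members called in any comparison, the 5 highest, lowest and most variable, the largest rise and fall of each comparison, paralogs with their counterparts, stalk genes, Rpsa and called genes of the lists, at most 3 per list and comparison by size, though all 4 are named where 4 were called. Sequences were compared with Biopython (1.88). Some genes that this rule names are not reported here.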

Additional observations from a re-analysis of the deposited data

How the results depend on the processing

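The fall of Rpl3l kept its sign in every alternative run for the all-days comparison and for days 1, 3 and 7. Over all days it stayed past the threshold in 17 of 21 alternatives, and leaving out a mouse gave -1.45 to -1.16 and 0 to 1 members called. At day 3 it stayed past the threshold in 12 of 16, and leaving out a mouse gave -1.80 to -1.29 and 0 to 1 members. The mouse block and the fit of all 18 samples gave -1.51 there with adjusted p = 0.055 and 0.092 and so 0 members. The highest transcript of each gene gave 2 members, Rpl3l and Rpl5 (0.57, limma adjusted p = 0.049, without the copies of Rpl5). At day 7 it stayed in 14 of 16, and leaving out a mouse gave -1.98 to -1.69 and 0 to 1 members. The replicate block changed no other call. Fewer samples were tested where a mouse was left out, and the cause of the other losses was not tested.

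From day 1 to day 3 on the denervated side 1 member was called with equal sums, and 0 to 1 with a mouse left out. From day 1 to day 7 there it was 42 with equal sums, 5 with genes above 0 TPM kept, and 4 to 25 with a mouse left out. Rpl11 turned to 0.051 with its highest transcript. The mean share of the members in the summed TPM was 10.8%, 12.3% with named pseudogenes, 13.6% with copies by 31-base words and 9.32% without the 5 highest members, and it does not depend on scaling. The Rpl3l to Rpl3 ratio kept its sign and its side of the threshold in all 13 alternatives, at -1.67 to -1.32 with a mouse left out. The copies and the muscle rescaling were added after seeing the data. Depth is unknown, so the precision of low members such as Rpl39l cannot be given.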
